A study of Rattus norvegicus with 18 samples.

Results

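miR-130a and miR-130b are 2 microRNAs (miRNAs) of the miR-130/301 family that were followed through the development of the rat cortex. They were chosen by name, as rno-miR-130a and rno-miR-130b, and they are 2 of 791 mature miRNAs and candidate sequences that were counted in the same way. The data were small RNA sequences from Sprague Dawley rats at 8 stages, E10, E13 and E17 before birth and P0, P3, P7, P14 and P28 after it. The tissue of the first 2 stages is labelled as forebrain and that of all later stages as somatosensory cortex, so that stage and tissue cannot be told apart between these. P0 had 2 tissue samples and every other stage 1, and each of the 9 tissue samples was sequenced in 2 runs, which gave 18 libraries of 4899010 to 16590379 clean reads. The runs are technical repeats and were not counted as replicates, no treatment was given, and whether a tissue sample was 1 animal or a pool is not given in the sources used here.

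A miRNA is cut as a short RNA from one arm of a hairpin precursor and is loaded into an Argonaute protein. It then pairs with messenger RNAs mainly through its seed, bases 2 to 8 from the 5′ end, so that miRNAs with the same seed can act on overlapping sets of targets. Members of the miR-130/301 family are known for repressing Pparg, a nuclear receptor of fat cell formation, and miR-130a is known from endothelial cells. Because a shift of the 5′ end moves the seed, and because the 3′ end is often trimmed or lengthened by added A or U residues, the ends of the sequenced tags were examined beside their number.

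The 3p arms of miR-130a, miR-130b and miR-301b are the 3 sequences with the seed of the members among 692 different mature rat sequences in RefSeq (build GRCr8). They are shown because the comparison rests on telling them apart, with the seed in capitals.
miR-130a-3p: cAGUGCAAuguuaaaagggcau
miR-130b-3p: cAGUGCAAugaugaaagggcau
miR-301b-3p: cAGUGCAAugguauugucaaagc

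miR-130a and miR-130b are identical at 20 of their 22 bases. Counted from the 5′ end and written as DNA with the miR-130a base first, the differences are T11A and A13G, and all 3 sequences share their first 10 bases. Both differences lie inside every tag of 18 nt or more that starts at the mature 5′ end, so that each tag could be given to 1 member, and 0 of the 293 member tags fitted another miRNA of the table. The member sequences given by the primers of the study are the ones printed here.

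Mir130a lies on chromosome 3 of GRCr8, on the minus strand, with its hairpin at chr3:90229228-90229315 and miR-130a-3p at chr3:90229240-90229261. Mir130b lies on the plus strand of chromosome 11, with its hairpin at chr11:97384380-97384461 and miR-130b-3p at chr11:97384430-97384451. The hairpin of Mir301b ends 269 bases before that of Mir130b on the same strand, at chr11:97384033-97384110, and both lie within the annotated gene 2610318N02Rikl. The hairpins of the members are shown with both mature arms in capitals, the 5p arm first.
Mir130a: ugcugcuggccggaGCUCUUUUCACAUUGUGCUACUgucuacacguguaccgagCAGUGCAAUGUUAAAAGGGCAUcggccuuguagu
Mir130b: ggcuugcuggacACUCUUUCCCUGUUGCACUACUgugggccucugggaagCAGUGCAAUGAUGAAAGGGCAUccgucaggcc

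The unit of level used here is the number of tags per 1000000 clean reads of a library (TPM). A tag was counted when it was identical to the mature sequence over their common length, began within 3 nt of its 5′ end and ended at most 3 nt past its 3′ end. No library held a tag shorter than 18 nt. The counts came to 145004 reads in 152 different tags for miR-130a and 104711 reads in 141 tags for miR-130b. A level of 3 reads corresponds to 0.181 to 0.612 TPM, depending on the library. Intervals and this floor stand for counting error alone, as amplified reads carry no molecular identifiers.

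The run 2 library of E10 stood apart from the others. In the other 17 libraries the 18 nt tag was the most frequent form of both members, whereas in this library tags of 18 nt made up 0.0126% of the miR-130a reads and 0.0277% of the miR-130b reads. Of all reads of that library, whatever their sequence, 2.21% were 18 nt long, against 6.55% to 13.9% in the 9 libraries of run 1 and 3.52% to 6.42% in the other 8 of run 2. Tags reached 30 nt in every library of run 1 and 39 nt in every library of run 2. Whether the reads of this library or of either run were trimmed in another way is not given in the sources used here, and its part in the levels and tag lengths was not tested. Run 1 of the same E10 tissue did not share the lack of 18 nt tags. The main tests over the stages are therefore also given with E10 taken from run 1 alone. The tissue was checked with 9 fixed lists of cell type marker miRNAs. The neuron list had 4 of its 5 names in the table (miR-124 was not). Its summed level was 2085 and 1747 TPM in run 1 and run 2 of E10, 223324 and 127426 TPM at P14 and 176964 and 119570.4 TPM at P28. Most of this sum was miR-128-3p, with the runs summed at 1616 of 1883 TPM at E10 and 138467 of 141158 TPM at P28. The mesenchyme list, 4 of 5 names, was at 43927 and 18945 TPM in run 1 and run 2 of E10 and 52022 and 32732 TPM at E13. It was at 242 to 5881 TPM in the libraries from E17 on. Most of it at E10 was miR-199a-3p, at 41919 and 17577 TPM. The erythroid list, 2 of 3 names, was at 620 and 1765 TPM at E10, with run 2 the higher, 146 and 72.2 TPM at E13 and 28.1 to 103 TPM later. The epithelium list, 5 of 6 names, was at 8.51 and 37.2 TPM at E10, 75.5 and 43.5 TPM at E13 and 0.408 to 2.89 TPM later. Over all 18 libraries the endothelium marker miR-126 ranged over 31.3 to 287 TPM and the muscle list, 4 of 4 names, over 24.1 to 4475 TPM, from run 1 of E17 to run 2 of P28. The neural progenitor and glia list, 2 of 2 names, ranged over 14651 to 81999.8 TPM, the leukocyte and microglia list, 2 of 2 names, over 6.63 to 82.6 TPM, and the liver marker miR-122 over 13.1 to 172 TPM. With the runs summed, the neural progenitor and glia list was at 70820 TPM at E10, 23385 TPM at E13 and 16744 to 44228 TPM from E17 on. The leukocyte and microglia list was at 80.1 TPM at E10, 20.9 TPM at E13 and 7.75 to 39.9 TPM from E17 on. miR-200a, from the epithelium list, was the listed name at 0 in all libraries. The neuron, mesenchyme, erythroid and epithelium lists moved with the stages over which the members moved. With the runs summed, miR-126 was at 184 TPM at E10, 48.1 TPM at E17 and 174 TPM at P28. miR-122 was at 47.9 TPM at E10, 72.1 and 27.1 TPM in the P0 samples and 33.9 TPM at P28, so that neither moved in one direction. The part of the markers in the results was not tested.

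Both members fell over development, and miR-130b fell further. miR-130b was higher before birth than after it in all libraries but 1 of P0, whereas the run 1 level of miR-130a was highest in a P0 sample. In bulk tissue, fewer cells that hold a miRNA and less of it per cell cannot be told apart. In forebrain at E10, miR-130a was at 1543 TPM in run 1 and 3377 TPM in run 2. At E13 its levels were 1799 and 457 TPM, and in somatosensory cortex at E17 they were 1239.6 and 369.5 TPM. E10 was thus below E13 in run 1 and above every other library in run 2.

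At P0, the first tissue sample held miR-130a at 2198 TPM in run 1 and 226 TPM in run 2, and the second at 206 TPM in both runs. The run 1 library of the first P0 sample was the highest of the 9 libraries of run 1, above E10 at 1543 TPM, and the other 3 P0 libraries were lower than every library before birth. The mean of the P0 samples was 709 TPM ± 711 (SD, n = 2). Later values of miR-130a in run 1 and run 2 were 208 and 119 TPM at P3, 349.6 and 127 TPM at P7, 229.6 and 100.2 TPM at P14, and 155 and 84.1 TPM at P28. From P3 on miR-130a lay between 84.1 and 349.6 TPM in all 8 libraries.

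miR-130b was at 1704 and 2202 TPM in the 2 runs of E10, at 2796 and 602 TPM at E13 and at 1079.6 and 247 TPM at E17. At P0 it was at 521 and 95.7 TPM in the first sample and at 98.3 and 69.5 TPM in the second, with a mean of 196 TPM ± 159 (SD, n = 2). The levels of miR-130b before and after birth overlapped in 1 library, run 1 of the first P0 sample. After P0 it was at 38.0 and 25.5 TPM at P3, 58.9 and 13.1 TPM at P7, 34.5 and 8.29 TPM at P14, and 9.80 and 2.29 TPM at P28. The lowest of these rests on 38 reads, with a 95% Wilson interval of 1.67 to 3.14 TPM, so that miR-130b was still detected at P28.

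**Figure D1:**
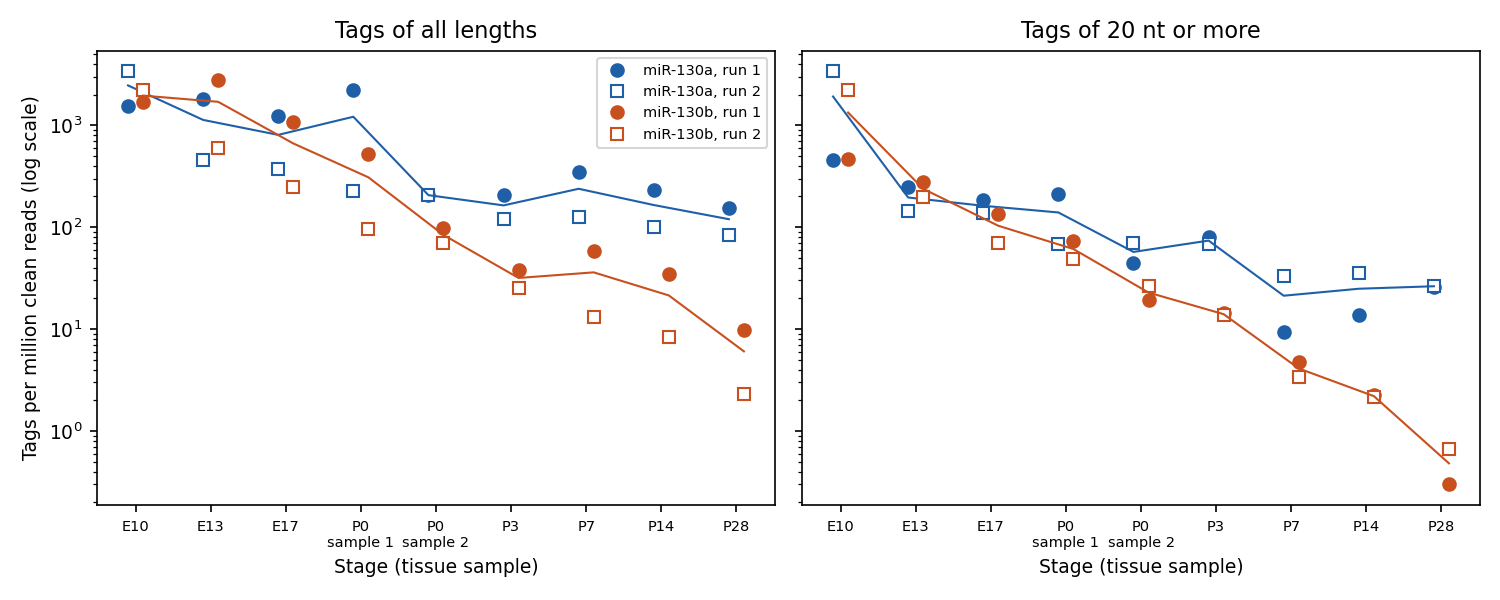
Level of miR-130a (blue) and miR-130b (orange) in each library, in tags per 1000000 clean reads on a log axis, by stage and tissue sample, with tags of all lengths on the left and tags of 20 nt or more on the right. Circles are run 1, squares run 2 and lines the mean of the runs. miR-130b ends at 9.80 and 2.29 TPM at P28 where miR-130a is at 155 and 84.1 TPM, and the run 2 values of E10 stand highest on the right.

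Ordered by the mean of the runs, miR-130a ran E10, E13, E17, P0, P7, P14, P3 and P28, with means from 2459.8 to 119.7 TPM. No step between neighbours in this order was larger than the 5.88-fold difference between the P0 samples, the largest being 2.98-fold from P0 to P7. Both the step and the place of P0 rested on run 1 of the first P0 sample, without which P0 was at 216 TPM, below P7 at 238 TPM, the P0 samples differed by 1.10-fold and 6 of the 7 steps were larger than that, up to 3.38-fold from E17 to P7. With each of the 18 libraries left out in turn, the order was kept in 9 cases and the largest step was 2.18-fold to 4.30-fold. For miR-130b the order was E10, E13, E17, P0, P7, P3, P14 and P28, from 1953 to 6.04 TPM. The step of 5.45-fold from P0 to P7 was larger than the 3.68-fold difference between its P0 samples, and the other 6 steps were not. Without run 1 of the first P0 sample the P0 mean of miR-130b was 89.8 TPM, the P0 samples differed by 1.14-fold, the step from P0 to P7 was 2.49-fold and the largest was 7.39-fold from E17 to P0. Without run 2 of P7 the step from P0 to P7 was 3.33-fold, and no step was larger than the difference between the P0 samples. With each library left out in turn the order was kept in 13 of 18 cases and the largest step was 3.54-fold to 9.34-fold. In all 18 cases miR-130b was higher at each of E10, E13 and E17 than at P0, higher at P0 than at each later stage, and lowest at P28. The runs of a tissue sample differed by 1.002-fold to 9.72-fold for miR-130a and by 1.29-fold to 5.45-fold for miR-130b.

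Counting tags of 20 nt or more, which leaves out the 18 and 19 nt forms, lowered the levels and left the same member higher in each of the 18 libraries. miR-130a was then at 457 and 3372 TPM at E10, 246 and 145 TPM at E13, and 26.0 and 26.6 TPM at P28. miR-130b was at 468 and 2200.1 TPM at E10, 278 and 197 TPM at E13, and 0.300 and 0.663 TPM at P28, the last 2 from 3 and 11 reads.

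The question that the stages allow is whether a miRNA tended to rise or fall over development. It was tested as a slope of the log2 count on the order of the 8 stages, with the quasi-likelihood test of edgeR over all 9 tissue samples. A slope that passes does not show that the change was steady. Of 564 miRNAs tested, 244 (43.3%) passed an adjusted p of 0.05, 98 of them rising and 146 (25.9%) falling. Both members were among those that fell, so that the count of 2 of 2 stands against a background in which falling was common. miR-130a fell by 0.54 log2 units per stage (SE 0.11, adjusted p = 0.00227, edgeR), which amounts to 13.5-fold from E10 to P28. miR-130b fell by 1.22 log2 units per stage (SE 0.13, adjusted p = 2.39e-05, edgeR), or 371-fold over the same stages. By size of the fall miR-130b ranked 9 and miR-130a 96 among the 564.

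The median slope over all 564 miRNAs was -0.09, and without TMM scaling it was -0.19, with 53 rising and 217 falling among 270 calls. Under that scaling the slopes of the members were -0.64 and -1.29, so that both fell relative to the median of all miRNAs under either scaling. With E10 from run 1 alone the slopes were -0.48 for miR-130a (adjusted p = 0.00556, edgeR) and -1.19 for miR-130b (adjusted p = 2.14e-05, edgeR). With the first P0 sample from run 2 alone they were -0.51 (adjusted p = 0.000669, edgeR) and -1.21 (adjusted p = 1.74e-05, edgeR). In run 1 alone the slope of miR-130a was -0.49 with an adjusted p of 0.0517 in edgeR, which missed the threshold.

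**Figure D2:**
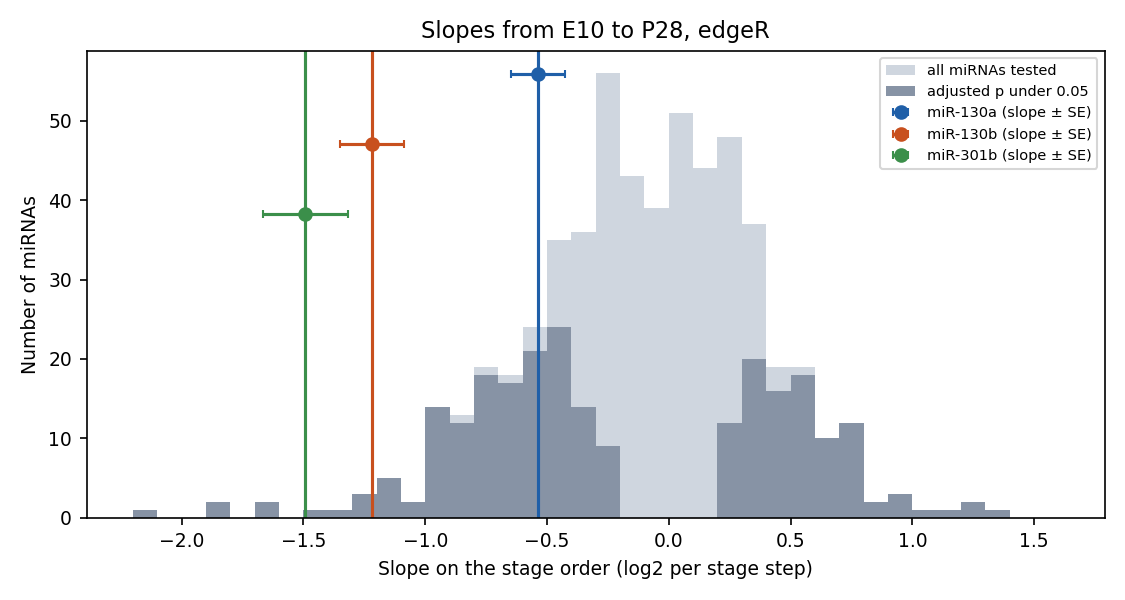
Histogram of the slopes of 564 miRNAs on the stage order, in log2 units per stage step, with those past an adjusted p of 0.05 in the darker shade. Vertical lines with points and bars give the slope ± SE of miR-130a (-0.54), miR-130b (-1.22) and miR-301b (-1.49), all to the left of the median of -0.09.

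The ratio of the members within a library does not depend on its size or scaling, and it changed from about equal amounts to a large excess of miR-130a. For each read of miR-130a there were 1.10 reads of miR-130b in run 1 of E10 and 0.652 in run 2. At E13 there were 1.55 and 1.32, and at E17 0.871 and 0.670. miR-130b was thus the more abundant member in 3 libraries, those of E13 and run 1 of E10.

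The ratios at P0 were 0.237 and 0.423 in the first tissue sample and 0.477 and 0.337 in the second. All 12 libraries from P0 on lay below all 6 libraries before birth, the nearest values being 0.477 and 0.652. The ratio was 0.183 and 0.214 at P3, 0.168 and 0.104 at P7, 0.150 and 0.0828 at P14, and 0.0631 and 0.0272 at P28. Put as a share of the reads of both members, miR-130b made up 60.8% in run 1 of E13 (95% Wilson interval 60.3 to 61.4%) and 2.65% in run 2 of P28 (1.94 to 3.62%).

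With the reads of both runs summed, the log2 ratio fell by 0.66 per stage over the 9 tissue samples. Pearson's r with the stage order was -0.949 (p = 0.000187) and Spearman's rho was -0.946 (p = 0.000375), both by exact two-sided permutation tests, and this was the only relation tested for the ratio. P28 lies farthest from the median of the stage order and E10 and P14 lie next, at the same distance, so that r was taken again without P28 and either of them. Without E10 and P28 it was -0.965 (exact permutation p = 0.000794), and without P14 and P28 it was -0.894 (exact permutation p = 0.00754). Among the 7 samples labelled somatosensory cortex alone the slope was -0.72 and r was -0.971 (exact permutation p = 0.000794).

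The fall of the ratio from E13, the highest tissue sample, to P28, the lowest, was 32.1-fold, or 5.003 on the log2 scale. At E10, the first stage, the ratio was 0.758 with the runs summed, against 0.0461 at P28. The P0 samples had a mean log2 ratio of -1.61 ± 0.39 (SD, n = 2), and the 2 runs of a tissue sample differed by 0.23 to 1.21 log2 units, so that the change over development was larger than either spread. E10, with a log2 ratio of -0.40, was below E13, at 0.56. In run 1 alone E10 was also the lower, and its difference from E13 was smaller there. The slope was -0.64 in run 1 (exact permutation p = 0.000165) and -0.73 in run 2 (exact permutation p = 0.000143). It was -0.70 with E10 from run 1 alone (exact permutation p = 4.96e-05), -0.67 with tags of 18 nt only and -0.76 with tags of 20 nt or more.

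**Figure D3:**
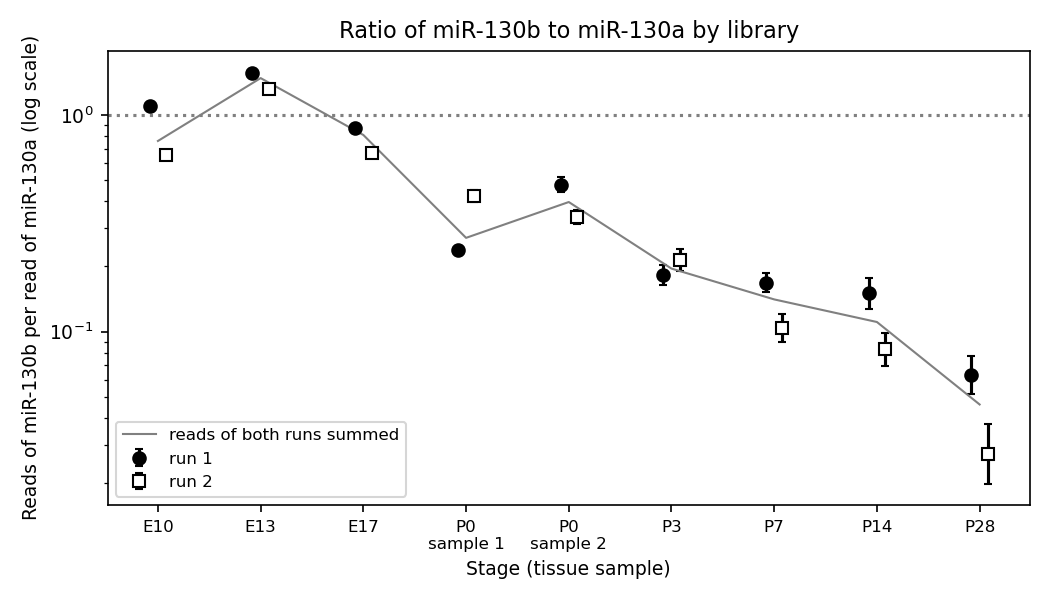
Reads of miR-130b per read of miR-130a in each library, on a log axis, by stage and tissue sample. Filled circles are run 1, open squares run 2, bars the 95% Wilson interval and the grey line the ratio of the summed runs. The ratio lies above 1 (dotted line) in 3 libraries and falls to 0.0631 and 0.0272 at P28.

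The third miRNA counted with the same seed, miR-301b-3p, which lies next to miR-130b on chromosome 11, was high at E10 and low from E13 on. It was at 909.5 and 2267 TPM at E10, and at 44.7 and 71.0 TPM at E13. At E17 it was at 14.9 and 9.25 TPM, and from P7 on between 0.301 and 0.958 TPM in every library, on 4 to 14 reads. Its slope of -1.49 log2 units per stage (SE 0.17, adjusted p = 4.49e-05, edgeR) was -1.41 with E10 from run 1 alone (adjusted p = 4.16e-05, edgeR) and -1.21 without E10 (adjusted p = 0.0029, edgeR).

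miR-301b and miR-130b did not keep a fixed ratio although their hairpins are neighbours. There were 0.534 and 1.03 reads of miR-301b per read of miR-130b in the runs of E10, 0.0160 and 0.118 at E13, and 0.0138 and 0.0374 at E17. P3 was the other stage at which the ratio was high in both runs, at 0.411 and 0.379. The miR-301b level at P3, 15.6 and 9.67 TPM, was close to its P0 mean of 12.5 TPM ± 1.31 (SD, n = 2). With 1 tissue sample at each stage but P0, these differences between stages were not tested.

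miR-301a-3p, by its name a further member of the family, was not analysed here. Added together, the 3 miRNAs counted with the seed were at 6362 TPM at E10, 2389 TPM at E13 and 1305 TPM at E17, with the runs summed. The P0 samples held 1093 and 299 TPM and the later stages 203 (P3), 229 (P7), 146 (P14) and 116 TPM (P28). These sums hide large differences between the runs, of which run 1 was the higher in every tissue sample but that of E10. In run 1 and run 2 the sum was 4640 and 1130 TPM at E13, 2334 and 626 TPM at E17, 2743 and 325 TPM in the first P0 sample, and 321 and 282 TPM in the second. Later it was 261 and 154 TPM at P3, 409 and 141 TPM at P7, 265 and 109 TPM at P14, and 165 and 86.7 TPM at P28. From P3 on no library reached the lowest library before birth. The makeup of this sum changed with it. miR-130a supplied 41.5% at E10, 39.3% at E13 and 95.3% at P28, whereas miR-130b supplied 31.5%, 58.1% and 4.40% and miR-301b 27.1%, 2.58% and 0.291%. In run 1 of E10 alone the sum was 4157 TPM, against 7846 TPM in run 2, and the order turned, with 37.1% from miR-130a, 41.0% from miR-130b and 21.9% from miR-301b, whereas in run 2 the shares were 43.0%, 28.1% and 28.9%. From E17 on miR-130a was the largest of the 3 parts in every library.

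The opposite arms of the hairpins gave few reads. miR-130b-5p was counted at 1365 and 1751 reads in the runs of E10, 918 and 367 at E13, and 4 and 0 at P28, where a count of 0 allows up to 0.181 TPM. miR-130a-5p was counted at 44 and 1462 reads at E10, 28 and 44 at E13 and 1 and 2 at P28. Over the stages miR-130b-5p fell by 1.18 log2 units per stage (SE 0.14, adjusted p = 5.08e-05, edgeR) and miR-130a-5p fell by 0.92 (SE 0.15, adjusted p = 0.000503, edgeR). Of the 1506 reads of miR-130a-5p at E10, 1462 came from run 2. Taking E10 from run 1 alone gave miR-130a-5p a slope of -0.49 (adjusted p = 0.0237, edgeR). Taking every stage from run 1 gave -0.50, which did not pass (adjusted p = 0.0652, edgeR). Per 100 reads of the 3p arm, the median over the 18 libraries was 5.41 reads of the 5p arm for miR-130b and 0.264 for miR-130a. The 5p share was higher for miR-130b in 17 of the 18 libraries, P28 run 2 being the exception. The value of 2.64 for miR-130a in run 2 of E10 was the highest for that hairpin and was 0.258 in run 1. miR-3590, annotated on the strand opposite to Mir130a, gave at most 10 reads of its 3p arm and 0 of its 5p arm in any library.

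**Figure D4:**
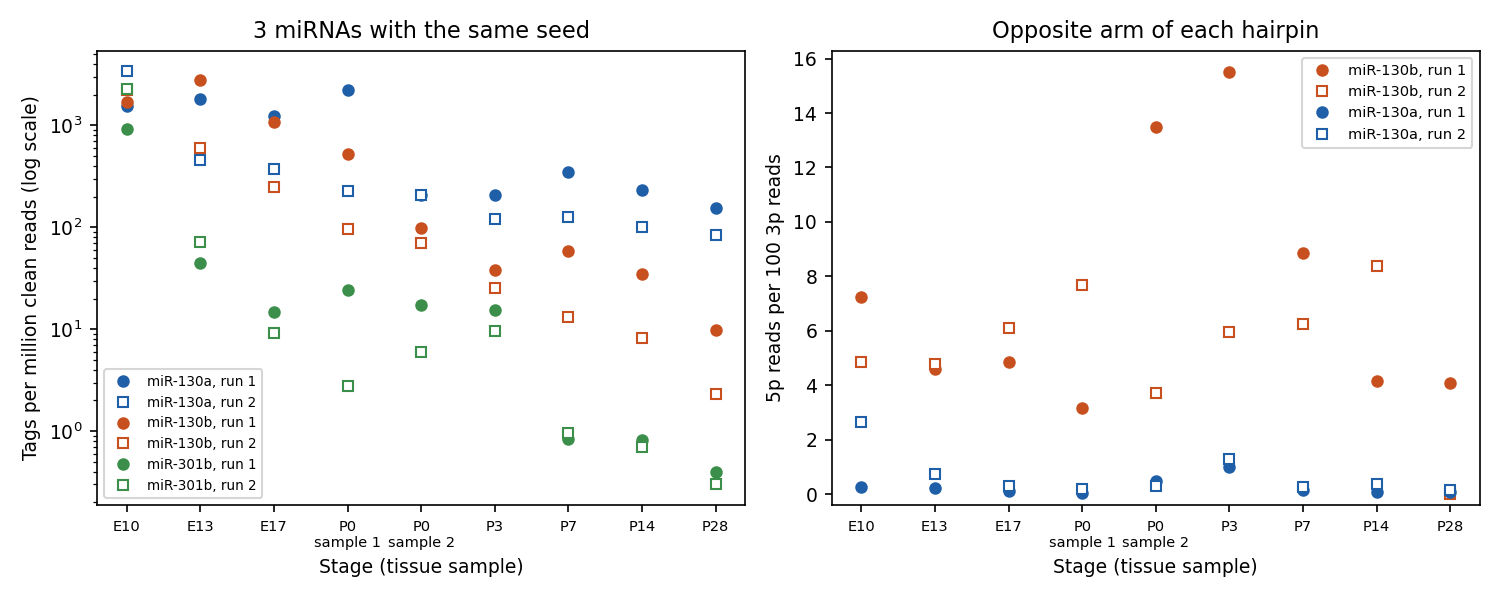
Left, level of the 3 miRNAs that share the seed in each library, in tags per 1000000 clean reads on a log axis; right, reads of the 5p arm per 100 reads of the 3p arm for the hairpins of the members. Circles are run 1 and squares run 2. miR-301b falls from 909.5 and 2267 TPM at E10 to 44.7 and 71.0 TPM at E13, and the 5p share of miR-130b (median 5.41) exceeds that of miR-130a (median 0.264) in 17 of 18 libraries.

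The most frequent tags show how the ends of the members varied. They are written as DNA, as in the deposited tables, with bases 2 to 8 of each tag in capitals.
miR-130a, 18 nt: cAGTGCAAtgttaaaagg
miR-130a, 22 nt: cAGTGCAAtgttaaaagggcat
miR-130a, 23 nt with A: cAGTGCAAtgttaaaagggcata
miR-130b, 18 nt: cAGTGCAAtgatgaaagg
miR-130b, 22 nt: cAGTGCAAtgatgaaagggcat
miR-130b, 19 nt: cAGTGCAAtgatgaaaggg
miR-130b, 5′ end 1 nt late: aGTGCAATgatgaaagggcat

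The 18 nt tag held 65048 reads, 44.9% of all miR-130a reads, and 46335 reads, 44.3% of all miR-130b reads. Of these, 7 reads of each member came from run 2 of E10. Leaving out that library, the share of 18 nt tags ranged from 35.5% to 95.9% for miR-130a (median 65.2%) and from 33.4% to 92.9% for miR-130b (median 57.8%). It moved with the run: in run 1 the median was 81.0% for miR-130a and 80.9% for miR-130b, and in run 2 without E10 it was 61.0% and 52.7%. miR-301b had hardly any 18 nt tags, with 1 read in run 1 of E10 and 5 in run 2. As 18 nt was also the shortest tag in the tables, shorter forms of the members were not analysed here.

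**Figure D5:**
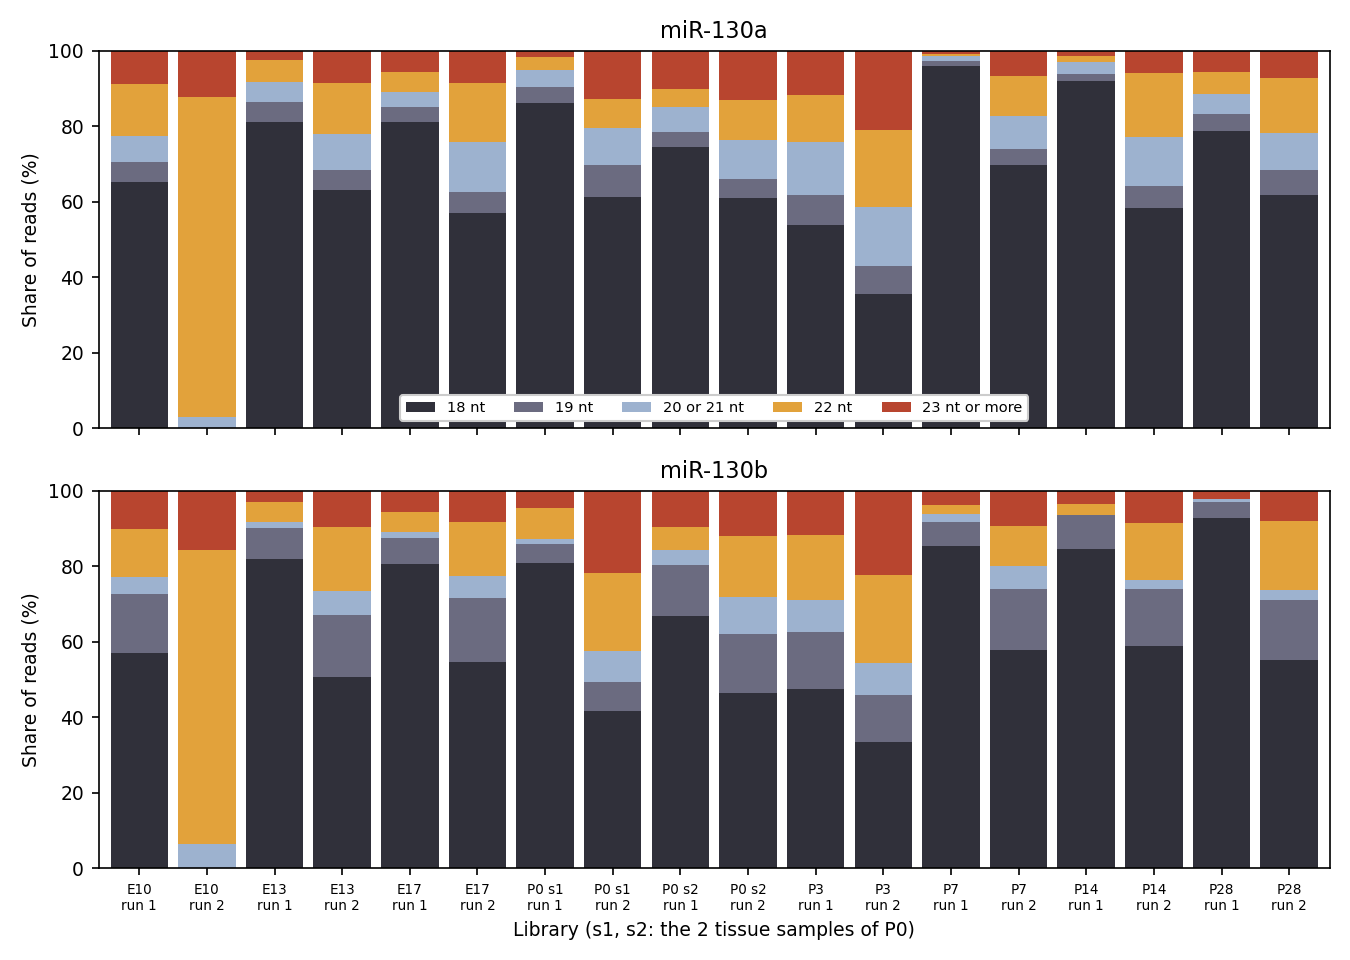
Share of the reads of miR-130a (top) and miR-130b (bottom) by tag length in each of the 18 libraries, as stacked bars that add to 100%. The 18 nt form leads in 17 libraries and all but vanishes in run 2 of E10, where tags of 22 nt make up 84.6% and 78.0%.

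The 22 nt length was the leading one in run 2 of E10, with 84.6% of the miR-130a reads and 78.0% of the miR-130b reads. In the other libraries its share was at most 20.4% for miR-130a and 23.3% for miR-130b. The members differed in the short forms: tags of 19 nt had a median share of 13.0% for miR-130b and 5.12% for miR-130a, and were the larger share in miR-130b in 15 of 18 libraries. Tags of 20 or 21 nt went the other way, with medians of 4.30% for miR-130b and 7.87% for miR-130a, and were the smaller share in miR-130b in 16 of 18 libraries. These classes were compared after the values were seen and were not tested.

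The 5′ end, which sets the seed, was the mature one in most reads of both members. Its share was 97.3% to 99.7% in the libraries for miR-130a and 92.2% to 100% for miR-130b. A start 1 nt late, which moves the seed by 1 base, had a median share of 1.09% for miR-130a and 2.30% for miR-130b and was the more frequent in miR-130b in 16 of 18 libraries. With the runs summed, the share of the mature 5′ end was 1.04 percentage points ± 1.33 (SD, n = 9) lower for miR-130b, which the exact sign-flip test did not separate from 0 (p = 0.0586, adjusted p = 0.315 over 15 tests of end variants). In run 2 alone the difference, miR-130b minus miR-130a, was -2.38 points and miR-130b was lower in all 8 samples with enough reads (exact sign-flip p = 0.00781, the smallest that 8 samples can give, adjusted p = 0.117). As the mean of the runs it was -1.41 points, with miR-130b lower in 7 of 8 samples (exact sign-flip p = 0.0156, adjusted p = 0.0879).

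None of the other 14 tests of end variants passed either. The smallest p that the sign-flip test over 9 samples can give is 0.00391. The mean share of tags that ended at the mature 3′ end was 0.498 percentage points lower for miR-130b (exact sign-flip p = 0.777), that of tags short of it 0.891 points lower (exact p = 0.707), that of tags past it 1.39 points higher (exact p = 0.160), and that of 18 nt tags 2.22 points lower (exact p = 0.387). The last 3 differences were larger as the mean of the runs, over the 8 samples with 50 reads or more in each run. The difference, miR-130b minus miR-130a, was then -6.71 points for the 18 nt share, which was lower for miR-130b in 8 of 8 samples (exact sign-flip p = 0.00781). It was -3.96 points for the share short of the mature end (exact p = 0.0234) and 2.25 points for the share past it (exact p = 0.0234), and each had an adjusted p of 0.0879. For the 18 nt share it was -7.79 points in run 2 alone (exact p = 0.0312, adjusted p = 0.156) and -3.43 points in run 1 alone (exact p = 0.211). Over the stages, the 18 nt share changed by 4.37 points per stage for miR-130a (r = 0.463, exact permutation p = 0.215) and by 5.05 points for miR-130b (r = 0.568, exact permutation p = 0.111). With E10 from run 1 alone these slopes were 0.298 and 1.999 points per stage.

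Tags that ran past the mature 3′ end, counted from the mature 5′ end, came to 12201 reads for miR-130a and 10170 for miR-130b. The base that follows in both hairpins is C, and 0.361% and 0.747% of these reads went on as the hairpin does. The first added base was A in 59.6% and T (U in the RNA) in 37.3% of them for miR-130a, and A in 49.8% and T in 46.6% for miR-130b. Run 2 of E10 supplied 6635 of these miR-130a reads and 5455 of these miR-130b reads. There the shares of miR-130b were 47.1% for A and 48.2% for T, so that T led, whereas A led in the other 17 libraries with 52.8% against 44.8%. For miR-130a A led in both, with 61.3% against 34.2% in run 2 of E10 and 57.6% against 41.0% in the others. For miR-301b, where the next hairpin base is A, 73.5% of 38778 such reads went on as the hairpin does, 77.4% of 29476 in run 2 of E10 and 60.9% of 9302 in the other libraries.

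The miRNAs with the pattern most like each member were looked up by Pearson's r of the log2 level over the 9 tissue samples among 189 miRNAs above a mean of 50 TPM. The samples share libraries and depth across miRNAs, so that r is a description. The 5 nearest to miR-130a were miR-363-3p (r = 0.969), miR-17-5p (0.967), miR-20a-5p (0.959), miR-130b-3p (0.9496) and miR-374-5p (0.9492). The 5 nearest to miR-130b were miR-363-3p (r = 0.991), miR-301a-5p (0.976), miR-181a-2-3p (0.970), miR-92a-3p (0.953) and miR-17-5p (0.951). miR-130a was at rank 7 for miR-130b, and miR-301b-3p, its neighbour on the chromosome, at rank 20 (r = 0.855).

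miR-363, miR-17, miR-20a and miR-92a belong to the miR-17-92 clusters and their relatives, which are known from dividing cells. On a list of 12 miRNAs of these clusters or of the same seed families, 11 fell (25.9% of all miRNAs tested did), 0 rose and miR-19b-3p did not pass. The median slope was -0.73 against -0.09 for all 564 miRNAs. This list, like the neuron list below, was chosen with earlier results of these data known. It also holds miR-363, miR-17, miR-20a and miR-92a, named above for their pattern, so that its fall is a description. The slopes were -0.71 for miR-17-5p, -0.65 for miR-92a-3p and -1.20 for miR-363-3p, the steepest of the list, beside -0.54 for miR-130a and -1.22 for miR-130b. On the neuron list, 3 of the 4 tested miRNAs rose (17.4% of all miRNAs tested did) and 0 fell, with a median slope of 0.81. miR-132-3p, which neuronal activity is known to induce, rose by 1.21 log2 units per stage (SE 0.13, adjusted p = 2.39e-05, edgeR), and miR-137-3p had a slope of 0.12 and did not pass.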

How the data were processed

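Small RNA of 16 to 35 nt was sequenced on an Illumina Genome Analyzer II per the labels. Reads of low quality, adaptor sequence and contaminants were taken out by the authors, who deposited, for each library, the counts of its unique clean tags beside their length, neither normalized nor mapped. Tags were matched to 693 rat mature miRNA names of RefSeq (GRCr8) and 101 candidates of the study, giving 791 sequences; tags fitting several were counted for each. Runs were summed per tissue sample. Slopes on the stage order came from the quasi-likelihood fit of edgeR 4.0.16 (R 4.3.3; library sizes from total clean reads with TMM factors; 10 counts or more required in 2 tissue samples or more), with Benjamini-Hochberg adjustment; DESeq2 1.42.0 was an alternative. The edgeR, counting and permutation steps were tested on simulated data. Other steps used Python 3.11.15 and scipy 1.17.1. Shares of end variants required 50 reads of each member. Run numbers come from the labels: deviations of libraries with the same run number correlated above 0.1 in 36 of 36 pairs (median 0.323), so a fit of 18 libraries with the run as a replicate block was an alternative. Most stages had 1 tissue sample, so p-values measure scatter around a trend. Named were the members, miRNAs with their seed, opposite arms, the 5 nearest patterns and fixed lists; the members and lists were chosen with earlier results of these data known.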

Additional observations from a re-analysis of the deposited data

Results flagged for a closer look

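Tags of the length of miR-130a that differ from it by T22C, counted from the 5′ end, are not identical to the mature sequence and entered none of the levels above. They came to 3943 reads in run 2 of E10, or 8.42% of the reads of the identical 22 nt tag there, and to at most 10 reads in any other library, 33 reads in all and 0.430% of the identical reads of those libraries. Run 1 of the same tissue sample had 10 such reads. The same substitution of miR-130b had 15 reads over the 18 libraries. T22C was not the only change at this base. Tags with T22A came to 0.491% of the identical reads of miR-130a in run 2 of E10 and 3.68% in the other libraries. For miR-130b these shares were 1.24% and 10.3%, so that T22A was the lower in run 2 of E10 for both members. The T22C result was picked out because the signal lies in tags outside the measurement and far above its level elsewhere, and its cause was not tested.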

How the results depend on the processing

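The fall of the log2 ratio kept its direction and an exact permutation p under 0.05 under all 19 alternatives, and the slope of miR-130b passed the threshold under all 23. In run 1 alone 128 miRNAs passed against 244, and the slope of miR-130a, -0.49, did not; it passed under the other 22 alternatives. With the run as a replicate block, 341 of 562 miRNAs passed and the slopes were -0.51 (miR-130a) and -1.19 (miR-130b); the block treats both runs of a tissue sample as separate and changed no call on the members. DESeq2 called 279. Leaving out each tissue sample in turn gave 176 (without P28) to 256 calls, slopes of -0.59 to -0.48 for miR-130a and -1.35 to -1.12 for miR-130b, and -0.77 to -0.60 per stage for the log2 ratio. Choices added after seeing the data were tags of 20 nt or more (252 calls), tags of 18 nt, E10 from run 1 alone (249 calls), and the first P0 sample from run 2 alone (237 calls). No test of end variants passed under any alternative after adjustment (lowest adjusted p 0.0879, as the mean of runs), and signs turned as follows. The difference in tags at the mature 3′ end was 0.829 points in run 1, 1.75 in run 2, 1.70 as the mean of runs, 0.566 with E10 from run 1 alone, and -1.501 to 0.786 leaving out samples. The difference in tags short of it was 0.359 with tags of both runs and -2.02 to 0.717 leaving out samples. For miR-130a the slopes were -6.23 to 0.382 points per stage (mature end), -0.246 to 6.88 (short of it) and -0.308 to 5.99 (18 nt), turning without E10; the other causes were not tested. Depth limits miR-130b most at P28, with 98 and 38 reads.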
